A study of Mus musculus with 8 samples.

Results

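Mouse embryonic stem cells given the full SA treatment were compared with untreated cells of the same reporter genotype, across every gene with enough counts. The comparison uses 4 of the 8 libraries of the series, 2 per group. Of 55573 genes in the count table, 20608 passed the filter on low counts and were tested. The treated group, 2C::GFP+/SA (SA below), consisted of 2C::GFP+ cells kept in KnockOut medium (20% serum replacement) with 2 µM SGC0946, 2 µM AS8351, and IL6 with its soluble receptor (IL6/sIL-6R) at 10 ng/ml where LIF would stand. The control group, 2C::GFP+ (untreated below), received no compound and had LIF at 10 ng/ml. The labels give 2 media for ESCs, and only the column names place the untreated cells in the KnockOut medium. All 4 libraries carry the 2C::GFP+ genotype. The labels do not describe what drives this reporter, how long the treatment lasted, whether the cells are 1 clone, or whether they were sorted for GFP. Another reporter group with 2 µM SGC0946 and LIF (SGC-only below) and wild-type mESC without compound entered the fit so that all groups shared one estimate of the spread. The values of the SGC-only group stand beside a few genes without a test. The 3 changes from control to SA (both compounds and the cytokine) were made together, so their parts cannot be told apart here.

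The 2-cell-like state is a rare and passing state of cultured ESCs in which genes and retroviral repeats of the 2-cell embryo are transcribed, at the stage when the mouse zygote first switches on its genome. The transcription factor DUX opens this programme, and many of its targets sit in tandem families such as Zscan4, Tcstv, Usp17l, Tdpoz and Obox. SGC0946 inhibits DOT1L, the methyltransferase of lysine 79 of histone H3, a mark of transcribed genes. AS8351 binds iron and has been used to inhibit KDM5B, a lysine demethylase. LIF holds mouse ESCs in self-renewal through a receptor made of LIFR and gp130 (encoded by Il6st), which activates STAT3. IL6 with its soluble receptor reaches the same signalling chain through gp130 without LIFR.

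The SA libraries held 96895327 and 12299931 counts and the untreated libraries 126660609 and 16474223 (replicates 1 and 2), so replicate 1 was the deeper library in both groups. Levels are CPM, counts scaled by TMM to a common library total. A total of 3 counts, taken as the limit of detection, corresponded to 0.0329 and 0.231 CPM in SA and 0.025 and 0.178 CPM in untreated cells, for counting error only. Nothing in the labels says that replicates came from separate cultures, so the tests measure the spread between these libraries, which may be technical. All 8 markers of pluripotent cells were above 1 CPM in the 4 libraries, with summed levels of 4210 and 4195 CPM in SA and 5047 and 4165 CPM in untreated cells. Markers of 2-cell-like cells summed to 6096 and 2217 CPM in SA and to 464 and 577 CPM in untreated cells. Of 9 fibroblast (feeder) markers, 6 in each SA library and 7 in each untreated library were under 1 CPM, and their sum was 34.3 and 27.7 CPM in SA against 9.53 and 9.21 CPM. Of 8 macrophage and blood markers, 7 were under 1 CPM in each of the 4 libraries. The 6 endothelial markers, some of which ESCs express, summed to 87.1 and 124 CPM in SA and to 138 and 128 CPM in untreated cells. The part of other cell types in the results below was not tested.

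The treatment moved 28.7% of the tested genes (5910 of 20608; edgeR's quasi-likelihood test, Benjamini-Hochberg adjusted p below 0.05). In all, 3072 genes rose (14.9%) and 2838 fell (13.8%). The numbers were close, but the sizes were not. The median log2 fold change was 2.50 among risen genes and -0.84 among fallen genes. Rises of at least 4-fold were seen in 1843 genes and falls of that size in 161. At 8-fold or more there were 1238 rises and 27 falls, or 1233 and 26 when the 92 called genes without a count in one group were held to a bound of 3 counts over that group. Both SA libraries lay above both untreated libraries in 3060 of the risen genes, and both lay below in all 2838 fallen genes. Over all tested genes the groups were apart in this way in 64.3%. Without untreated replicate 1 the number of calls dropped to 2890 (1500 rises and 1390 falls).

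**Figure D1:**
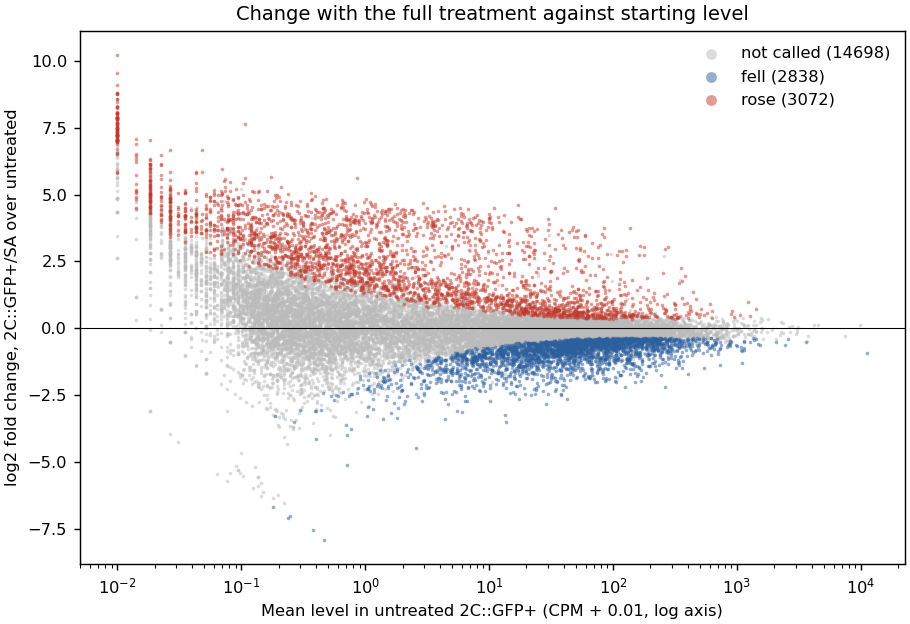
Log2 fold change of each tested gene (vertical axis, SA over untreated) against its mean level in the 2 untreated libraries (horizontal axis, CPM + 0.01, log scale). Red points rose, blue points fell and grey points were not called. Rises of at least 4-fold (1843 genes) span a wide range of starting levels, and falls of that size (161 genes) are fewer. Points at the left edge have no count in untreated cells, and their fold depends on the small constant added in the fit.

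The share of rises and falls differed with the starting level. Of 1677 genes under 0.1 CPM in untreated cells, 30.1% rose and none was called lower, a range in which the counts leave little room to show a fall. A gene near 0 in untreated cells was tested only where another group gave it enough counts, so the filter itself favours rises among genes of low level. This touches every list below whose members are near 0 in untreated cells. Of 2478 genes over 100 CPM, 7.06% rose and 29.0% fell. Measured per length and per library total (TPM), the genes called risen held 23.9% and 17.7% of transcripts in the SA libraries and 6.18% and 6.56% in the untreated libraries. They held 8.79% and 8.80% in SGC-only cells. The genes called fallen went from 24.4% and 24.6% of transcripts in untreated cells to 13.3% and 15.4% in SA. These shares describe the genes that the test itself chose. The count of genes over 1 CPM was 14585 and 14463 in SA and 13363 and 13487 in untreated cells.

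Protein-coding genes split into 2268 rises and 2712 falls of 15718. Pseudogenes gave 351 rises and 32 falls of 1831, and long non-coding RNAs gave 329 rises and 89 falls of 2238. Predicted models with names made of Gm and a number, grouped after the values were seen, gave 689 rises and 71 falls of 3676. By chromosome, the share of tested genes that rose was 21.3% on chromosome 12, 19.9% on X, 19.5% on 3 and 19.4% on 1, against 14.9% overall and 9.88% on chromosome 17.

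Part of the risen genes sat side by side. Among 2282 windows of 1 Mb with a tested gene, 10 held at least 10 risen genes, 159 in all. The densest lay on chromosome 12 (GRCm38), where 27 of 42 tested genes rose between 87000001 and 88000000 and 23 of 34 rose in the next window. These were predicted models almost throughout, with the oocyte gene Oog1 among them. On chromosome 13, between 23000001 and 24000000, 21 of 39 tested genes rose, all but Abt1 being histone genes. On chromosome 3, between 93000001 and 95000000, the windows that hold the Tdpoz family gave 15 of 20 and 17 of 30 risen genes. On chromosome 7, the Obox region (15000001 to 16000000) gave 16 of 25 and the Zscan4 region (11000001 to 12000000) 10 of 14. Copies in such clusters are alike in sequence, and how multimapping reads were counted is not given in the sources used here, so values of single copies are uncertain. Of the windows, 28 held at least 10 fallen genes, 343 in all, and the largest number in a window was 17, of 64 tested, on chromosome 17 between 35000001 and 36000000.

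Receptor genes of the nose were grouped after the values were seen. Their levels in untreated cells were low, so those tested are in part the ones that reached a higher level in some group, and their share of rises is a description only. Of 62 tested olfactory receptor genes, 29 rose and 1 fell, and of 32 vomeronasal receptor genes 10 rose and none was called lower. Their levels stayed low: the median olfactory receptor gene went from 0.138 and 0.119 CPM in untreated cells to 0.690 and 0.616 CPM in SA. A few reached more. Olfr815 had 38 and 17.2 CPM in SA and 0.893 and 1.13 CPM in untreated cells (log2 fold change 4.83 ± 0.55 SE, adjusted p = 0.000339). Keratin genes gave 8 rises and 2 falls of 21, while zinc finger genes named Zfp gave 44 rises and 78 falls of 387. These were also grouped after the values were seen, and over all tested genes 14.9% rose and 13.8% fell. Their levels differed: the median in untreated cells was 0.275 and 0.238 CPM for keratin genes and 14.1 and 12.8 CPM for Zfp genes.

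In 25 genes both untreated libraries were under 0.1 CPM and both SA libraries over 1 CPM. No gene did the reverse. The 25 were found by this rule after the values were seen, and most are predicted models or pseudogenes. Among those with a name are Ros1, a receptor tyrosine kinase, at 3.61 and 3.54 CPM in SA and 0.0834 and 0.0594 CPM in untreated cells, and Pcdh9, a protocadherin, at 2.86 and 3.39 CPM against 0.0668 and 0. Rsph6a, a part of the radial spoke of sperm tails, had 2.35 and 3.77 CPM against 0.0334 and 0. In the untreated libraries these 3 genes rested on 11, 8 and 4 counts.

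The sequence at a RefSeq start of 4 genes is shown so that promoters of genes that rose can be set beside promoters of genes that fell. Zscan4c (ENSMUSG00000054272, chromosome 7, 11005745 to 11010547 on the plus strand) encodes a zinc finger protein that marks the 2-cell-like state, and Usp17lc (ENSMUSG00000058976, chromosome 7, 103415072 to 103419880 on the plus strand) a deubiquitinase of a family active in the 2-cell embryo. Tpi1 (ENSMUSG00000023456, chromosome 6, 124810586 to 124814296 on the minus strand) encodes the glycolytic enzyme triosephosphate isomerase, and Il6st (ENSMUSG00000021756, chromosome 13, 112464070 to 112510086 on the plus strand) the receptor chain gp130. Each run holds 300 bases from RefSeq (GRCm38.p6), 250 before and 50 after the start of the transcript, written 5′ to 3′ on the strand of the gene. They cover chr7:11005495-11005794, chr7:103416446-103416745, chr6:124814109-124814408 and chr13:112463820-112464119. The gene coordinates above are those of GENCODE, and the starts of the 2 sources differ for Usp17lc and Tpi1. The run of Usp17lc lies wholly inside its GENCODE gene, and the start used for Tpi1 also lies inside its gene. Capitals mark the letters TATAAA, those of the TATA box of core promoters, at any place in the run. They also mark the letters GGGCGG, known as the GC box. Each was searched on both strands.
Zscan4c: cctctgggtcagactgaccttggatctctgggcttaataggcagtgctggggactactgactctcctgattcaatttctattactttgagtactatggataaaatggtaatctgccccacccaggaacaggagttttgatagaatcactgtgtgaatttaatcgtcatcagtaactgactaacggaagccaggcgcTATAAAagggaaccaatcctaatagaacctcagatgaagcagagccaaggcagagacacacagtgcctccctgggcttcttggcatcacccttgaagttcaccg
Usp17lc: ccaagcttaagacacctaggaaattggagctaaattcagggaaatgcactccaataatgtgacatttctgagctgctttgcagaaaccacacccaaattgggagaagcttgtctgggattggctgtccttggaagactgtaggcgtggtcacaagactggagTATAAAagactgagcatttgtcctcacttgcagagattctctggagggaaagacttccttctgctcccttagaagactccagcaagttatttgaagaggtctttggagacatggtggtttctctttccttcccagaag
Tpi1: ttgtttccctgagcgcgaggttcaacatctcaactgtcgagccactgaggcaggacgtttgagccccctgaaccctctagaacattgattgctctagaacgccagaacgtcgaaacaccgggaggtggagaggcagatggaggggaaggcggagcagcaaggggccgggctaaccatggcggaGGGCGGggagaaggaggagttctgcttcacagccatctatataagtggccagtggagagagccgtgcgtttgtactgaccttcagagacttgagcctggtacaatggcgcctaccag
Il6st: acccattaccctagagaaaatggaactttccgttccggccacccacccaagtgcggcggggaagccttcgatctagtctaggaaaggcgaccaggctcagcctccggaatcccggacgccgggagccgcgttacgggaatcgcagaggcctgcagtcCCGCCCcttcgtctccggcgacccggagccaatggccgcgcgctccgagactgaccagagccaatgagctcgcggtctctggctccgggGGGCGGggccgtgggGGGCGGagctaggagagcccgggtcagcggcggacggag
The first pair has 1 match to TATAAA each and none to GGGCGG. The first base of the match lies at -54 (Zscan4c) and -88 (Usp17lc) from the start. The second pair has 1 and 3 matches to GGGCGG and none to TATAAA. Only these exact letters were searched, so the near form tatataag in the run of Tpi1 was not counted. The 4 were picked with their direction known and serve as examples only. Over the 12134 tested protein-coding genes with an entry in the table, of 15718, a GC box stood in 69.8% of promoters of fallen genes, 54.7% of those of risen genes and 60.3% of those not called, against 35.7% of all 32851 promoters in the table. The letters TATAAA, at any place in the 300 bases and on either strand, stood in 5.44%, 12.0% and 7.43%, against 13.6% of all promoters. Whether they lie where a TATA box acts was not tested. The shares differed with the starting level. Under 1 CPM in untreated cells, a GC box stood in 41.3% of promoters of risen genes and 40.5% of those not called. From 1 to 10 CPM it stood in 55.4% of those of risen genes, 55.8% of those of fallen genes and 59.1% of those not called. At 10 CPM or more it stood in 66.0% of those of risen genes, 72.0% of those of fallen genes and 68.5% of those not called. The TATA share of risen genes was above that of genes not called in each range: 15.1% against 11.8% under 1 CPM, 13.0% against 6.94% from 1 to 10 CPM, and 8.65% against 5.90% above. Matches of letters are a description and do not show that a site is used.

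Named genes follow a rule, given under the processing of the data. Counts of calls in a list are to be read beside the 14.9% of all tested genes that rose and the 13.8% that fell. Where a call below was lost without 1 library or under another setting, the adjusted p in that fit stands beside the gene. All other calls of named genes given below held when each of the 8 libraries was left out in turn and under the other settings, the replicate block aside, in each fit that tested the gene, and genes with stable calls were preferred after that was seen. Where edgeR called no member of a list in a direction, DESeq2 and limma called none either and no member had an unadjusted p below 0.05 in that direction, unless numbers are given.

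Genes of the 2-cell-like state had the highest median change of the 41 lists. Of 48 tested members 36 rose and 2 fell, with a median log2 fold change of 3.22, against 14.9% and 13.8% and a median of 0.01 over all tested genes. The list is made of genes chosen for this state, to which the name of the reporter also points, and was chosen with results of these data known. In bulk RNA, more cells in this state and more RNA per such cell cannot be told apart. Duxf3, whose product DUX starts the programme, stood at 71.6 and 76.6 CPM in SA and 4.71 and 4.99 CPM in untreated cells (log2 fold change 3.94 ± 0.24 SE, adjusted p = 8.38e-07). The SA libraries matched each other closely for Duxf3, while many of its targets were higher in SA replicate 1. Tmem92, a membrane protein gene outside the tandem families, rose from 33.7 and 34.2 CPM to 964 and 588 CPM (log2 fold change 4.52 ± 0.27 SE, adjusted p = 9.79e-06). Arg2, the mitochondrial arginase, rose from 7.96 and 6.95 CPM to 167 and 92.4 CPM (log2 fold change 4.11 ± 0.26 SE, adjusted p = 2.26e-06). In SGC-only cells these genes stood at 9.24 and 13.4, 88.2 and 63.2 and 16.8 and 17.6 CPM, between the untreated and the SA levels. In the part of the list set apart from the large tandem families, 13 of 17 rose and 2 fell. This part holds Duxf3 and also a member of the Tdpoz family. The falls were Gsta4, a glutathione transferase, from 366 and 314 CPM to 145 and 116 CPM (log2 fold change -1.38 ± 0.15 SE, adjusted p = 2.97e-05), and Patl2, a translational repressor of oocytes (log2 fold change -0.95 ± 0.32 SE, adjusted p = 0.0448; 0.484 without untreated replicate 2, 0.289 without SA replicate 1, 0.0858 without SGC-only replicate 1, 0.0861 without mESC replicate 1, 0.0857 with DESeq2 size factors, 0.149 with limma on log2(TPM + 0.1), 0.138 with limma on log2(TPM + 1), 0.124 in a fit of only the 4 libraries, 0.0866 with replicate 1 thinned, 0.0805 with a stricter low-count filter).

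In the tandem families no member was called lower by edgeR. The calls were 5 of 6 tested Zscan4 genes, 2 of 2 Tcstv, 5 of 5 Usp17l, 3 of 3 Tdpoz, 5 of 10 Prame-like and 3 of 5 Obox genes. A further Tdpoz gene is counted among the 17 genes above. SA replicate 1 stood above replicate 2 in many of them. Zscan4c reached 1699 and 637 CPM in SA against 156 and 196 CPM in untreated cells (log2 fold change 2.73 ± 0.55 SE, adjusted p = 0.0206; 0.106 without untreated replicate 1, 0.153 without untreated replicate 2, 0.0889 without SGC-only replicate 2, 0.0682 without mESC replicate 2, 0.0613 with no low-count filter). Its groups did not overlap, as in 64.3% of all tested genes. Zscan4d, with 2446 and 886 CPM against 219 and 299, missed the threshold (adjusted p = 0.0504) but was called higher under several alternatives: the adjusted p was 0.0497 without SA replicate 2 and 0.0267 without mESC replicate 1, and 0.00151 with DESeq2, 0.0117 with limma on log2(TPM + 1), 0.0395 in a fit of only the 4 libraries, 0.026 with replicate 1 thinned and 0.0143 with a stricter low-count filter. The whole Zscan4 list of 6 genes held 1.33% and 0.639% of transcripts in SA by TPM and 0.124% and 0.187% in untreated cells. All 5 Usp17l genes were called higher, and together they held 0.565% and 0.287% of transcripts against 0.0410% and 0.0516%. Usp17lc reached 957 and 352 CPM against 48.3 and 46.9 (log2 fold change 3.78 ± 0.75 SE, adjusted p = 0.0236; 0.107 without untreated replicate 1, 0.168 without untreated replicate 2, 0.0768 without SGC-only replicate 2, 0.0537 with no low-count filter). Tdpoz1, of a family of BTB domain genes, rose from 0.401 and 0.119 CPM to 7.23 and 2.85 CPM (log2 fold change 4.04 ± 0.71 SE, adjusted p = 0.00143). Pramef6, a Prame-like gene, rose from 5.05 and 6.71 CPM to 121 and 64.1 CPM (log2 fold change 4.02 ± 0.32 SE, adjusted p = 2.34e-05), and Pramel5 rose from 0.275 and 0.238 CPM to 4.73 and 4.08 CPM. Obox3, a homeobox gene, rose from 0.192 and 0.535 CPM to 5.46 and 3.39 CPM (log2 fold change 3.88 ± 0.64 SE, adjusted p = 0.000743). Zfp352, a zinc finger gene active in the 2-cell embryo, rose from 6.89 and 4.75 CPM to 187 and 79.8 CPM (log2 fold change 4.48 ± 0.48 SE, adjusted p = 0.00118; 0.0512 without untreated replicate 2). The count of the whole 2-cell-like list moved with single libraries: 12 rose and 2 fell without untreated replicate 1, 11 rose and 1 fell without untreated replicate 2, 23 rose and 2 fell without SGC-only replicate 2.

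Regulators that act upstream of this state moved in both directions. Of 42 tested, 4 rose and 12 fell (3 rose and 6 fell without untreated replicate 1). Dppa2, an activator of Dux, rose from 259 and 254 CPM to 677 and 518 CPM (log2 fold change 1.22 ± 0.15 SE, adjusted p = 6.56e-05). Nelfa, a pausing factor described as a maternal driver of the state, had 3449.6 and 1153 CPM in SA and 299 and 259.6 CPM in untreated cells (log2 fold change 3.04 ± 0.58 SE, adjusted p = 0.0185; 0.0826 without untreated replicate 1, 0.161 without untreated replicate 2, 0.071 without SGC-only replicate 2, 0.0728 without mESC replicate 2, 0.0522 with no low-count filter). Among 34 chromatin repressors, 10 fell and 1 rose (29.4% and 2.94%, against 13.8% and 14.9% of all tested genes). Chaf1b, a subunit of the CAF-1 histone chaperone, fell from 129 and 132 CPM to 57.2 and 48.7 CPM (log2 fold change -1.30 ± 0.14 SE, adjusted p = 2.21e-05). Ehmt2, the H3K9 methyltransferase G9a, fell by less, from 295 and 246 CPM to 160.1 and 145 CPM (log2 fold change -0.83 ± 0.14 SE, adjusted p = 0.000942). The repressor that rose was Rif1, a telomere and replication timing protein, from 658 and 557 CPM to 1259 and 1004 CPM (log2 fold change 0.90 ± 0.14 SE, adjusted p = 0.000459). Lin28a, an RNA-binding protein listed with the repressors, fell by a log2 change of -0.85. Of the 8 activators 3 rose and 2 fell. Kdm6b, an H3K27 demethylase listed with these activators, fell by a log2 change of -0.98.

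Pluripotency genes were called lower more often than higher. Of 27 naive and core genes 5 rose and 13 fell, with a median log2 fold change of -0.42 (3 rose and 8 fell without untreated replicate 1). Sox2, a core factor, fell from 487 and 435 CPM to 241 and 263 CPM (log2 fold change -0.87 ± 0.13 SE, adjusted p = 0.000255). Pou5f1, which encodes OCT4, had 524 and 506 CPM in SA and 750.0 and 623 CPM in untreated cells (log2 fold change -0.42 ± 0.13 SE, adjusted p = 0.028; 0.252 without untreated replicate 1, 0.0726 without SA replicate 2, 0.0576 without SGC-only replicate 1, 0.0658 with DESeq2, 0.0729 in a fit of only the 4 libraries). Nanog stood at 853 and 604 CPM against 767 and 604, ranges that overlapped (adjusted p = 0.749), and Klf4 at 149 and 153 CPM against 178 and 185 (adjusted p = 0.176). Among naive factors, Esrrb fell from 698 and 717 CPM to 340.3 and 387 CPM (log2 fold change -0.96 ± 0.13 SE, adjusted p = 0.000112). Tfcp2l1, a target of STAT3, fell from 296 and 371 CPM to 141 and 151 CPM (log2 fold change -1.19 ± 0.15 SE, adjusted p = 7.46e-05), and Tcl1, an AKT cofactor, fell by a log2 change of -1.47 ± 0.19 (SE). Fgf4, the growth factor that drives ERK signalling in ESCs, fell by a log2 change of -0.89 ± 0.15. Zfp42, also called Rex1, had 416 and 358 CPM against 838 and 560.0 (log2 fold change -0.85 ± 0.18 SE, adjusted p = 0.00429; 0.0672 without untreated replicate 1). Against this direction, Sall4 rose from 382 and 366 CPM to 774 and 639 CPM (log2 fold change 0.92 ± 0.14 SE, adjusted p = 0.000335). Nodal, a ligand of the TGF-beta family that this list places with the naive factors, rose from 113 and 109.5 CPM to 256 and 356 CPM (log2 fold change 1.46 ± 0.15 SE, adjusted p = 2.34e-05).

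Formative genes, which mark the step between naive and primed cells, gave 7 rises and 3 falls of 25, a share of 40% called against 28.7% of all tested genes. The list median lay near 0, at a log2 fold change of -0.12. Pou3f1, also called Oct6, rose from 9.76 and 6.59 CPM to 41.9 and 68.6 CPM (log2 fold change 2.72 ± 0.29 SE, adjusted p = 3.28e-05). Sox3 rose from 13.7 and 15.3 CPM to 102 and 50.6 CPM (log2 fold change 2.41 ± 0.35 SE, adjusted p = 0.00131). Zic5 and Sox4 fell, by log2 changes of -1.22 and -1.47. Fgf5, the usual marker of the primed state, had 2.4 and 4.31 CPM in SA against 0.559 and 0.535 (log2 fold change 2.58 ± 0.69 SE, adjusted p = 0.0125; 0.098 without untreated replicate 1, 0.0501 without untreated replicate 2).

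Among the receptor chains of LIF and IL6, Il6st and Lifr fell and Il6ra rose. Of 43 tested genes of this signalling chain 3 rose and 15 fell, with a median log2 fold change of -0.34. Il6st, the chain that LIF and IL6 receptors share, fell from 106 and 119.7 CPM to 30.6 and 36.7 CPM (log2 fold change -1.75 ± 0.14 SE, adjusted p = 3.93e-06). Lifr, the chain used by LIF, fell from 94 and 78.5 CPM to 36.4 and 42.1 CPM (log2 fold change -1.14 ± 0.17 SE, adjusted p = 0.00029). Il6ra, the membrane receptor that binds IL6, rose from 9.55 and 8.08 CPM to 100 and 46.8 CPM (log2 fold change 3.06 ± 0.37 SE, adjusted p = 0.000637; 0.0518 without untreated replicate 2). In SGC-only cells, which had LIF, Il6st stood at 90.9 and 97.2, Lifr at 85.3 and 59.9 and Il6ra at 20.1 and 13.4 CPM. Of 5 STAT genes 3 fell and none was called higher. Stat6 fell from 78.4 and 66.9 CPM to 34.8 and 34.7 CPM (log2 fold change -1.07 ± 0.15 SE, adjusted p = 0.000192), and Stat3 had 62 and 83.9 CPM in SA and 109.8 and 104 CPM in untreated cells (log2 fold change -0.56 ± 0.14 SE, adjusted p = 0.0107; 0.0798 without untreated replicate 1, 0.104 without SA replicate 1, 0.0886 with limma on log2(TPM + 0.1), 0.0853 with limma on log2(TPM + 1)). Among 23 target genes, 9 fell and 2 rose. Bcl3, a nuclear cofactor of NF-kappaB, fell from 80 and 67.4 CPM to 28.4 and 19 CPM (log2 fold change -1.62 ± 0.23 SE, adjusted p = 0.0004), and Ccnd3, cyclin D3, from 311 and 248 CPM to 151 and 102 CPM. Socs3, the feedback inhibitor of gp130, had 110.4 and 91.4 CPM in SA and 143 and 124 CPM in untreated cells (log2 fold change -0.40 ± 0.14 SE, adjusted p = 0.0392), but its call was lost without each of 7 single libraries, with an adjusted p of up to 0.296 without SA replicate 2, and under 6 other settings (0.0511 to 0.133). The 2 targets that rose were Mcl1, a survival factor (log2 fold change 0.57 ± 0.14 SE, adjusted p = 0.00734; 0.0766 without untreated replicate 1), and Bcl6, a repressor (log2 fold change 1.15 ± 0.34 SE, adjusted p = 0.0204; 0.162 without untreated replicate 1, 0.113 without SA replicate 1, 0.102 with limma on log2(TPM + 0.1), 0.116 with limma on log2(TPM + 1)).

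**Figure D2:**
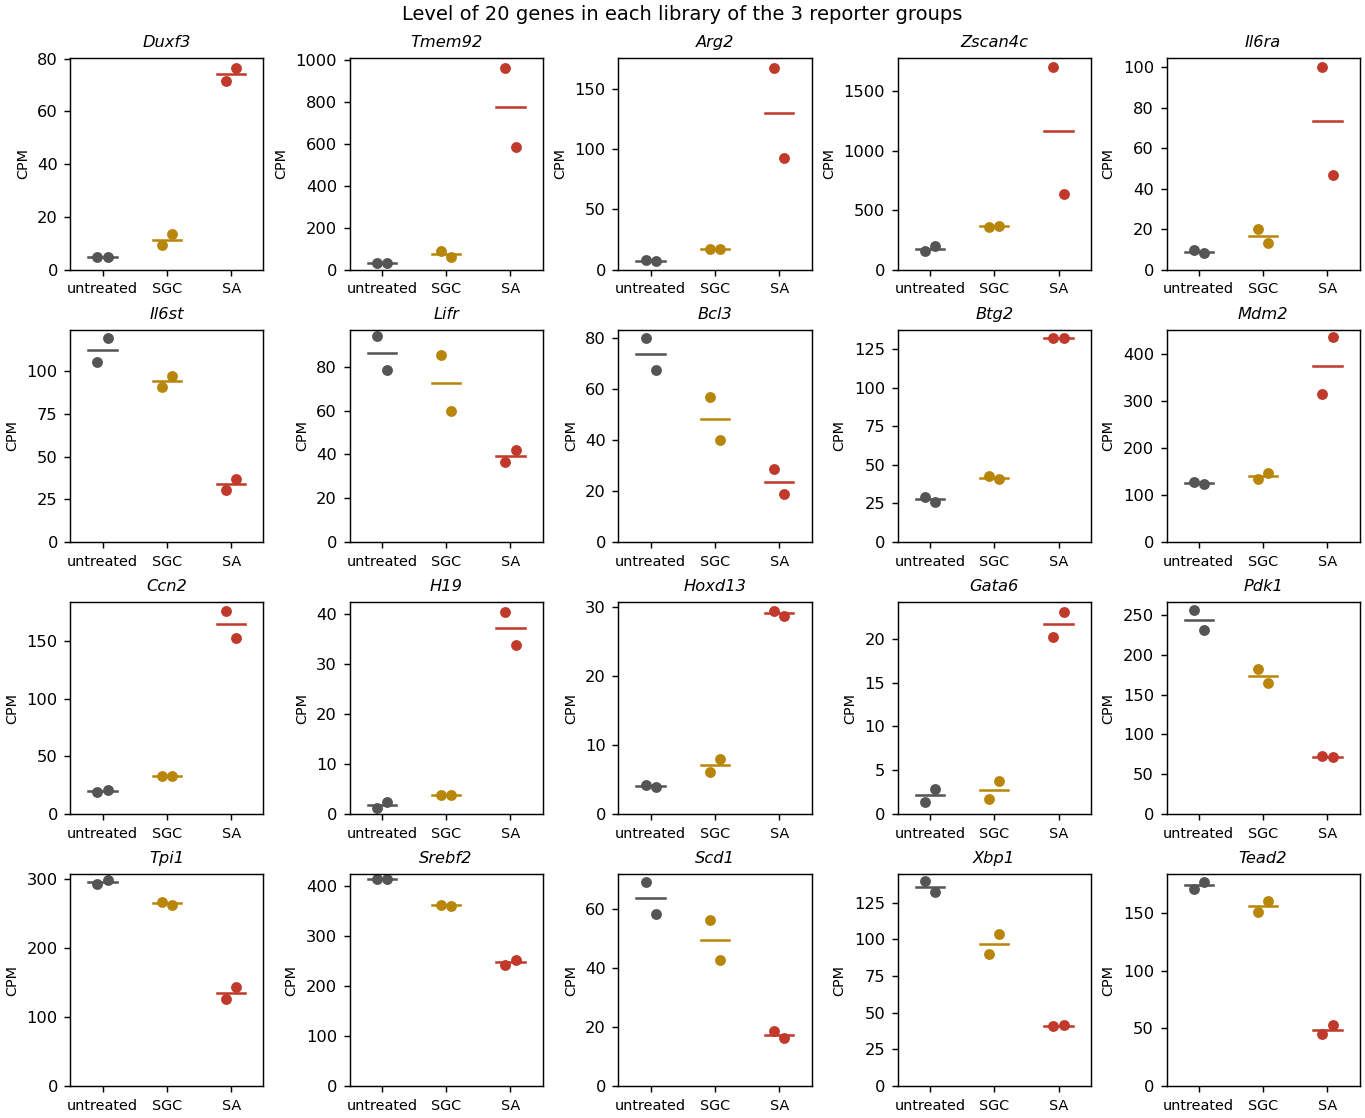
Level of 20 genes in each library (vertical axis, CPM from 0; horizontal axis, group). Points are the 2 libraries of a group, replicate 1 on the left, and the bar is their mean. Il6st, Lifr, Bcl3, Pdk1, Tpi1, Srebf2, Scd1, Xbp1 and Tead2 are lower in both SA libraries than in both untreated libraries and the other 11 genes are higher, with SGC-only libraries shown for comparison.

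The messages of the proteins that the compounds target were not called. Dot1l had 223 and 269.6 CPM in SA and 189.9 and 198 CPM in untreated cells (log2 fold change 0.35 ± 0.15 SE, adjusted p = 0.0957). Like 64.3% of all tested genes, Dot1l had groups that did not overlap, here with both SA libraries above both untreated libraries. It was called higher under several alternatives: the adjusted p was 0.0336 without SA replicate 1 and 0.0426 without mESC replicate 1, and 0.0289 with DESeq2 size factors, 0.0366 with DESeq2, 0.0376 with no low-count filter, 0.0469 with replicate 1 thinned and 0.0483 with a stricter low-count filter. Kdm5b had 779.5 and 739.9 CPM against 767 and 739 (adjusted p = 0.96), and Kdm5a and Kdm5c were not called either. Of 33 genes of DOT1L complexes and elongation 4 rose and 6 fell, close to the background (3 rose and 3 fell without untreated replicate 1). Of the 13 among them that are DOT1L and its partners, 4 fell and none was called higher by edgeR, while 2 were higher at an unadjusted p below 0.05 and DESeq2 called 2 higher, Dot1l being 1 of them. Aff1, of the super elongation complex, fell from 128 and 151 CPM to 63.6 and 69.9 CPM (log2 fold change -1.06 ± 0.14 SE, adjusted p = 9.01e-05), and Mllt10, also called AF10, by a log2 change of -0.64 ± 0.13 (SE). Ctr9, a subunit of the PAF1 elongation complex, rose from 157 and 173 CPM to 523 and 432 CPM (log2 fold change 1.53 ± 0.15 SE, adjusted p = 1.22e-05), while Rtf1, which works with this complex, fell by a log2 change of -0.63 ± 0.12. Hexim1, an inhibitor of P-TEFb, rose from 131 and 107 CPM to 219 and 225 CPM (log2 fold change 0.90 ± 0.14 SE, adjusted p = 0.000433). Of 25 histone lysine demethylases 1 rose and 7 fell (1 rose and 3 fell without untreated replicate 1, 2 rose and 3 fell without SA replicate 1). Falls made up 28% of the demethylases and rises 4%, beside 13.8% and 14.9% of all tested genes. The gene that rose was Kdm6a, the X-linked H3K27 demethylase, from 104 and 97.1 CPM to 183 and 157 CPM (log2 fold change 0.76 ± 0.13 SE, adjusted p = 0.000675). Kdm2b, which guides a Polycomb complex to CpG islands, fell from 259 and 241 CPM to 121 and 150.3 CPM (log2 fold change -0.88 ± 0.13 SE, adjusted p = 0.000307), and Kdm3b by a log2 change of -0.56 ± 0.12.

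The lysine demethylases and the prolyl hydroxylases that sense oxygen need iron, which AS8351 binds. Of 23 iron genes 3 rose and 5 fell, near the background (2 rose and 2 fell without untreated replicate 1). Slc40a1, the iron exporter ferroportin, rose from 0.734 and 0.475 CPM to 4.71 and 6.16 CPM (log2 fold change 3.07 ± 0.47 SE, adjusted p = 0.000343). Ncoa4, which delivers ferritin for breakdown, rose by a log2 change of 0.66 ± 0.13 (SE), and Steap2, a metalloreductase, fell from 57.1 and 70.1 CPM to 28.5 and 25.7 CPM (log2 fold change -1.23 ± 0.16 SE, adjusted p = 0.000128). Tfrc, the transferrin receptor, had 397 and 403 CPM against 651 and 605 (log2 fold change -0.65 ± 0.14 SE, adjusted p = 0.00418; 0.0515 without untreated replicate 1). Of 32 hypoxia genes 5 rose and 12 fell (3 rose and 7 fell without untreated replicate 1, 4 rose and 5 fell without SA replicate 1). Hif1a itself had 126 and 127 CPM against 128 and 107 (adjusted p = 0.59). Egln1, the prolyl hydroxylase PHD2, fell from 14.2 and 17.2 CPM to 7.33 and 5.55 CPM (log2 fold change -1.25 ± 0.22 SE, adjusted p = 0.00108). Bnip3, a mitophagy receptor, and Mxi1, a MYC antagonist, are HIF targets and fell by log2 changes of -1.38 and -1.31. Ddit4, an inhibitor of mTORC1 and also a HIF target, rose from 41.4 and 58.9 CPM to 265 and 212 CPM (log2 fold change 2.26 ± 0.22 SE, adjusted p = 6.89e-05), and Ak4, an adenylate kinase, from 72.7 and 54.6 CPM to 179.7 and 132 CPM (log2 fold change 1.29 ± 0.19 SE, adjusted p = 0.00035). Falls made up 37.5% of this list and rises 15.6%, beside 13.8% and 14.9% of all tested genes. Its median log2 fold change was -0.42.

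Genes of glucose breakdown fell where they were called. Of 22 glycolysis genes 13 fell and none was called higher, with a median log2 fold change of -0.65 (0 rose and 8 fell without untreated replicate 1). Falls made up 59.1% of this list, beside 13.8% of all tested genes. Tpi1 fell from 293 and 298 CPM to 126 and 144 CPM (log2 fold change -1.13 ± 0.13 SE, adjusted p = 3.64e-05). Eno3, the muscle form of enolase, fell from 45.4 and 38.8 CPM to 7.87 and 5.16 CPM (log2 fold change -2.65 ± 0.28 SE, adjusted p = 2.73e-05). Pdk1, the kinase that shuts pyruvate out of the citric acid cycle, fell from 257 and 231 CPM to 73.2 and 71 CPM (log2 fold change -1.76 ± 0.13 SE, adjusted p = 2.23e-06). The list as a whole held 0.630% and 0.764% of transcripts by TPM in SA and 0.955% and 0.913% in untreated cells. Nuclear-encoded genes of oxidative phosphorylation moved little, with 1 rise and 3 falls of 34 (1 rose and 0 fell without untreated replicate 1, 1 rose and 1 fell without untreated replicate 2, 1 rose and 9 fell without SA replicate 1). The rise was Cycs, cytochrome c, from 76.2 and 69.3 CPM to 131 and 115 CPM (log2 fold change 0.76 ± 0.13 SE, adjusted p = 0.000847). Of 13 mitochondrially encoded protein genes 7 were tested and none was called by edgeR (2 rose without SA replicate 2). mt-Co1, a subunit of cytochrome oxidase, had 11919 and 9631 CPM against 9790.2 and 9839.

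Sterol genes were called lower more often than higher. Of 34 tested 20 fell and 3 rose, with a median log2 fold change of -0.53 (1 rose and 14 fell without untreated replicate 1). Falls made up 58.8% of this list and rises 8.82%, beside 13.8% and 14.9% of all tested genes. Srebf2, the transcription factor that switches on sterol synthesis, fell from 415 and 414 CPM to 242 and 252 CPM (log2 fold change -0.75 ± 0.12 SE, adjusted p = 0.000589). Scd1, the stearoyl-CoA desaturase, fell from 69.1 and 58.3 CPM to 18.6 and 16.1 CPM (log2 fold change -1.87 ± 0.16 SE, adjusted p = 6.42e-06). The enzymes Sqle, Nsdhl and Msmo1 fell by log2 changes of -1.03, -1.31 and -1.20. Abcg1, a cholesterol exporter, rose by a log2 change of 0.85 ± 0.20 (SE), a call that was lost under other settings (adjusted p = 0.0693 with limma on log2(TPM + 0.1), 0.0998 with limma on log2(TPM + 1), 0.0616 in a fit of only the 4 libraries). Dhcr7, the last enzyme of the pathway, had 158 and 87.5 CPM in SA and 74.8 and 66.5 CPM in untreated cells (log2 fold change 0.80 ± 0.23 SE, adjusted p = 0.0276; 0.11 without untreated replicate 1, 0.282 without untreated replicate 2, 0.127 without SA replicate 1, 0.114 without SGC-only replicate 2, 0.108 without mESC replicate 2, 0.0896 in a fit of only the 4 libraries).

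Genes of the p53 pathway were called higher more often than lower. Of 34 genes of the pathway 19 rose and 1 fell, with a median log2 fold change of 0.56, and no single library moved the count by more than 1.5 times. Rises made up 55.9% of this list and falls 2.94%, beside 14.9% and 13.8% of all tested genes. Btg2, an antiproliferative gene, rose from 29.1 and 26.1 CPM to 132 and 132 CPM (log2 fold change 2.25 ± 0.14 SE, adjusted p = 1.05e-06). Mdm2, the ubiquitin ligase of p53 and itself a target, rose from 127 and 123 CPM to 314 and 435 CPM (log2 fold change 1.58 ± 0.15 SE, adjusted p = 1.32e-05). Plk2, a kinase, rose from 28.4 and 32.6 CPM to 144 and 217 CPM (log2 fold change 2.57 ± 0.19 SE, adjusted p = 3.93e-06), and Dcxr, a carbonyl reductase, from 7.92 and 4.57 CPM to 31.4 and 43.3 CPM (log2 fold change 2.53 ± 0.27 SE, adjusted p = 2.34e-05). The gene that fell was Sesn1, a stress sensor upstream of mTORC1, from 49.5 and 42.5 CPM to 20.1 and 18.3 CPM (log2 fold change -1.26 ± 0.17 SE, adjusted p = 0.000131). Cdkn1a, which encodes p21, had 67.2 and 86 CPM against 53.3 and 48.3 (log2 fold change 0.59 ± 0.16 SE, adjusted p = 0.0168; 0.0613 without untreated replicate 1, 0.0919 without untreated replicate 2, 0.0684 without SA replicate 2, 0.153 with limma on log2(TPM + 0.1), 0.148 with limma on log2(TPM + 1)). In SGC-only cells Btg2 stood at 42.8 and 40.5 and Mdm2 at 134 and 147 CPM.

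The integrated stress response, which slows translation and switches on ATF4 targets, had more falls than rises. Of 34 genes 6 rose and 16 fell (4 rose and 10 fell without untreated replicate 1, 4 rose and 8 fell without untreated replicate 2), against 14.9% and 13.8% of all tested genes. Of the 24 targets 2 rose and 12 fell, and of the 10 factors 4 rose and 4 fell. Atf3, an early stress factor, rose from 0.718 and 1.54 CPM to 14.8 and 17.3 CPM (log2 fold change 3.97 ± 0.49 SE, adjusted p = 9.1e-05), and Ppp1r15a, also called GADD34, from 48.7 and 66.6 CPM to 165 and 145 CPM (log2 fold change 1.43 ± 0.18 SE, adjusted p = 8.11e-05). Xbp1, the factor of the endoplasmic reticulum stress response, fell from 139.5 and 132 CPM to 40.9 and 41.4 CPM (log2 fold change -1.72 ± 0.14 SE, adjusted p = 3.93e-06). Trib3, Psat1 and Gpt2, a pseudokinase and 2 enzymes of amino acid synthesis that ATF4 switches on, fell by log2 changes of -1.57, -1.22 and -1.55. Hspa5, the chaperone BiP, fell from 629 and 620.5 CPM to 402 and 403 CPM (log2 fold change -0.64 ± 0.13 SE, adjusted p = 0.00205).

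Cell cycle genes were called lower more often than higher. Of 47 tested 14 fell and 4 rose, and among the 24 replication and mitosis genes 8 fell and none was called higher by edgeR (1 at an unadjusted p below 0.05 and 1 by DESeq2). Gmnn, which encodes geminin, an inhibitor of replication licensing, fell from 94.5 and 92.4 CPM to 37.7 and 36.3 CPM (log2 fold change -1.33 ± 0.13 SE, adjusted p = 1.35e-05). Ccne1, cyclin E1, fell from 355 and 277 CPM to 148 and 161 CPM (log2 fold change -1.03 ± 0.15 SE, adjusted p = 0.000215), and Mcm6 and Cdc6 of the licensing machinery by log2 changes of -0.64 and -0.79. The 23 cyclins, kinases and inhibitors gave 4 rises and 6 falls. Rb1, an inhibitor of the cycle, rose from 16.8 ± 3.32 CPM (SD, n = 2) to 39.7 and 54.5 CPM (log2 fold change 1.49 ± 0.22 SE, adjusted p = 0.000236) and Cdkn1c, also called p57, from 12 and 10.1 CPM to 39.1 and 33.7 CPM (log2 fold change 1.71 ± 0.21 SE, adjusted p = 7.98e-05). Myc had 65.9 and 59.5 CPM against 93.7 and 83.3 and missed the threshold (adjusted p = 0.052), which it passed under several alternatives (0.0292 without SGC-only replicate 2 and 0.0276 without mESC replicate 2, and 0.0373 with no low-count filter and 0.0307 in a fit of only the 4 libraries).

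Replication-dependent histone genes, whose messages mostly lack a poly(A) tail, rose in this polyadenylated RNA. Of 24 listed 20 were tested, of which 16 rose and none was called lower by edgeR, with a median log2 fold change of 2.16 (4 rose and 0 fell without untreated replicate 1, 9 rose and 0 fell without untreated replicate 2, 7 rose and 0 fell without SA replicate 1). Hist1h1c, a linker histone gene, rose from 7.27 and 6 CPM to 36.8 and 38.7 CPM (log2 fold change 2.50 ± 0.25 SE, adjusted p = 1.84e-05), and Hist1h4i from 11.3 and 9.27 CPM to 60.4 and 58.5 CPM (log2 fold change 2.52 ± 0.25 SE, adjusted p = 2.01e-05). Hist1h3e rose from 1.49 and 1.78 CPM to 8.43 and 6.78 CPM. Both SA libraries lay above both untreated libraries in these 3 genes, as in 3060 of all 3072 risen genes. Histone genes are near copies of each other, and reads may be shared between them.

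Primitive endoderm genes were called higher more often than lower, many from low levels. This lineage forms from the inner cell mass beside the epiblast and lines the yolk sac. Of 40 tested 23 rose and 4 fell, with a median log2 fold change of 2.11 (13 rose and 4 fell without untreated replicate 1). Gata6, the factor that starts the lineage, rose from 1.4 and 2.85 CPM to 20.3 and 23.1 CPM (log2 fold change 3.43 ± 0.43 SE, adjusted p = 0.000103), and Gata4 from 2.09 and 3.27 CPM to 9.14 and 15.1 CPM (log2 fold change 2.20 ± 0.41 SE, adjusted p = 0.00128). Pdgfra, the receptor that marks these cells, rose from 1.34 and 1.78 CPM to 19.4 and 31.4 CPM (log2 fold change 4.06 ± 0.52 SE, adjusted p = 0.000305). Sox17 had 7.78 and 7.78 CPM against 0.334 and 1.66 (log2 fold change 3.20 ± 0.87 SE, adjusted p = 0.0245; 0.0923 without untreated replicate 1, 0.055 without SA replicate 1, 0.0832 without SA replicate 2). Dkk1, a secreted Wnt inhibitor, rose from 0.0167 and 0.178 CPM, which rest on 2 and 3 counts, to 6.62 and 11.6 CPM (log2 fold change 7.64 ± 0.83 SE, adjusted p = 3.25e-05). The products of the mature lineage did not all follow. Amot, a junction protein, rose from 9.7 and 11.6 CPM to 73.2 and 89 CPM (log2 fold change 2.94 ± 0.25 SE, adjusted p = 1.22e-05) and Lamb1, a laminin, by a log2 change of 1.80 ± 0.19 (SE), while Fn1, fibronectin, fell from 1414 and 1624 CPM to 991 and 984 CPM (log2 fold change -0.62 ± 0.14 SE, adjusted p = 0.00534). The factor Hnf4a and the receptor Fgfr1 fell by log2 changes of -1.51 and -0.79. By summed TPM the list held 0.255% and 0.282% of transcripts in SA and 0.262% and 0.345% in untreated cells.

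Trophectoderm genes gave 11 rises and 7 falls of 36 (4 rose and 6 fell without untreated replicate 1). The lineage regulators Cdx2 and Gata3 stayed near 1 CPM or below: Cdx2 had 0.394 and 0.462 CPM in SA and 0.3 and 0.356 CPM in untreated cells, and Gata3 0.844 and 1.23 against 0.951 and 0.356. Tead4, the factor that acts above Cdx2, fell from 31.4 and 26.2 CPM to 7.36 and 5.85 CPM (log2 fold change -2.10 ± 0.20 SE, adjusted p = 1.39e-05). Peg10, an imprinted gene needed in the placenta, rose from 210.3 and 292 CPM to 949 and 1171 CPM (log2 fold change 2.08 ± 0.19 SE, adjusted p = 1.39e-05), Rhox6, a placental homeobox gene, from 0.401 and 0.356 CPM to 3.47 and 3.24 CPM, and the keratin Krt8 by a log2 change of 1.42 ± 0.25 (SE). Bmp4 fell from 43.7 and 39 CPM to 15.1 and 14.6 CPM (log2 fold change -1.47 ± 0.20 SE, adjusted p = 0.000126). Maternal oocyte genes gave 3 rises and 3 falls of 16 tested, of 26 listed (1 rose and 1 fell without untreated replicate 1, 2 rose and 1 fell without SA replicate 2). The share of tested oocyte genes called was 37.5%, beside 28.7% of all tested genes. Oog1 rose from 0.108 and 0.178 CPM to 2.27 and 2 CPM (log2 fold change 4.06 ± 0.74 SE, adjusted p = 0.00152), and Ooep, part of the subcortical maternal complex, fell from 76.9 and 58.7 CPM to 22.7 and 17.6 CPM (log2 fold change -1.74 ± 0.19 SE, adjusted p = 2.52e-05).

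Among genes of the embryonic germ layers, calls higher outnumbered calls lower. Of 23 mesendoderm genes 7 rose and none was called lower (2 at an unadjusted p below 0.05, 0 by DESeq2 or limma), and the share called, 30.4%, was near the 28.7% of all tested genes. The rises included Cxcr4, a chemokine receptor, from 0.534 and 0.594 CPM to 3.36 and 3.39 CPM (log2 fold change 2.60 ± 0.46 SE, adjusted p = 0.00106) and Snai2, a repressor of E-cadherin, from 0.684 and 1.07 CPM to 4.46 and 3.54 CPM. Of 26 listed neuroectoderm genes 21 were tested. Of these 8 rose and 2 fell (4 rose and 2 fell without untreated replicate 1). Sox1, the early neural marker, fell from 13.4 and 12.2 CPM to 3.52 and 2.62 CPM (log2 fold change -2.03 ± 0.34 SE, adjusted p = 0.000651). Of 36 Hox genes 29 were tested, of which 9 rose and none was called lower, a share called of 31.0% (3 rose and 0 fell without untreated replicate 1, 4 rose and 0 fell without SA replicate 1). Hoxd13, the most 5′ gene of its cluster, rose from 4.25 and 3.86 CPM to 29.4 and 28.7 CPM (log2 fold change 2.83 ± 0.27 SE, adjusted p = 1.2e-05). Hoxa13 rose from 0.184 and 0.119 CPM to 1.99 and 3 CPM (log2 fold change 3.89 ± 0.73 SE, adjusted p = 0.00143).

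Retinoic acid genes gave 9 rises and 5 falls of 30, with a median log2 fold change of 1.23 (5 rose and 4 fell without untreated replicate 1). Aldh1a2, the enzyme that makes retinoic acid in the embryo, rose from 4.86 and 3.21 CPM to 22.5 and 19.4 CPM (log2 fold change 2.35 ± 0.28 SE, adjusted p = 6.09e-05), and the receptor gene Rxrg from 1.35 and 0.832 CPM to 7.05 and 8.4 CPM (log2 fold change 2.75 ± 0.46 SE, adjusted p = 0.000651). Rara, which encodes a retinoic acid receptor, fell from 98.2 and 119 CPM to 40.1 and 56.7 CPM (log2 fold change -1.17 ± 0.18 SE, adjusted p = 0.000341). Tgm2, a usual target, fell from 6.46 and 7.13 CPM to 1.93 and 0.693 CPM. Canonical Wnt targets gave 6 rises and 4 falls of 19, a share called of 52.6% against 28.7% of all tested genes. Axin2, the feedback inhibitor, rose from 28.1 and 18.3 CPM to 71.3 and 73.6 CPM (log2 fold change 1.63 ± 0.18 SE, adjusted p = 3.98e-05), and Fzd7, a Wnt receptor, fell from 111 and 123 CPM to 43.7 and 55.2 CPM (log2 fold change -1.25 ± 0.19 SE, adjusted p = 0.00047). ERK feedback and target genes gave 4 rises and 3 falls of 24, about the background share. The phosphatase gene Dusp4 rose from 6.53 and 8.79 CPM to 30.2 and 58.2 CPM (log2 fold change 2.54 ± 0.42 SE, adjusted p = 0.0026), and the inhibitor Spred1 fell by a log2 change of -0.78 ± 0.16 (SE).

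YAP pathway genes changed in both directions. Of 28 genes 10 rose and 6 fell. Among the 14 factors 4 rose and 4 fell. Tead2, a DNA-binding partner of YAP, fell from 171 and 177 CPM to 45.3 and 52.5 CPM (log2 fold change -1.84 ± 0.13 SE, adjusted p = 2.23e-06). Among 14 target genes 6 rose and 2 fell. Ccn2, the matricellular protein also called CTGF, rose from 19.7 ± 0.906 CPM (SD, n = 2) to 176 and 153 CPM (log2 fold change 3.06 ± 0.17 SE, adjusted p = 6.41e-07). Fjx1, which encodes a secreted protein, rose from 10.7 and 7.84 CPM to 58.9 and 56.5 CPM (log2 fold change 2.62 ± 0.34 SE, adjusted p = 0.000417), and Crim1 by a log2 change of 2.03 ± 0.24 (SE). Amotl2, a YAP inhibitor, rose from 98.2 and 73.5 CPM to 229.9 and 227 CPM (log2 fold change 1.41 ± 0.18 SE, adjusted p = 0.000136). Thbs1, a thrombospondin, had 117 and 97.1 CPM against 5.72 and 2.85 (log2 fold change 4.56 ± 0.83 SE, adjusted p = 0.0164; 0.0611 without untreated replicate 1, 0.135 without untreated replicate 2, 0.0755 without SA replicate 2, 0.051 without mESC replicate 2).

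Germ cell and piRNA genes rose more often than they fell, 20 against 6 of 46 (10 rose and 5 fell without untreated replicate 1). Rises made up 43.5% of these genes and falls 13.0%, beside 14.9% and 13.8% of all tested genes. Tex19.1, which guards germ cells against retrotransposons, rose from 70.4 and 71.2 CPM to 197 and 178 CPM (log2 fold change 1.41 ± 0.17 SE, adjusted p = 5.88e-05), and Slc25a31, a nucleotide carrier of testis, from 5.09 and 6.65 CPM to 30.5 and 30.1 CPM (log2 fold change 2.39 ± 0.31 SE, adjusted p = 0.00014). Tdrd5, of the piRNA pathway, rose from 1.23 and 0.95 CPM to 4.68 and 6.93 CPM (log2 fold change 2.36 ± 0.40 SE, adjusted p = 0.000806). Prdm1, the factor that specifies primordial germ cells, fell from 18.7 and 18.1 CPM to 4.93 and 6.78 CPM (log2 fold change -1.68 ± 0.22 SE, adjusted p = 0.000128). Imprinted genes gave 11 rises and 4 falls of 35 (31.4% and 11.4%, against 14.9% and 13.8% of all tested genes). H19, a maternally expressed non-coding RNA, rose from 1.25 and 2.32 CPM to 40.4 and 33.9 CPM (log2 fold change 4.49 ± 0.32 SE, adjusted p = 2.23e-06). Magel2, a paternally expressed gene, rose from 1.78 and 1.54 CPM to 30.3 and 23.3 CPM (log2 fold change 3.99 ± 0.35 SE, adjusted p = 7.45e-06), and Plagl1, a zinc finger gene, from 8.12 and 8.55 CPM to 35.6 and 38.1 CPM (log2 fold change 2.15 ± 0.18 SE, adjusted p = 6.42e-06). Phlda2, a maternally expressed growth inhibitor of the placenta, fell from 69.2 and 62.1 CPM to 29.8 and 32.7 CPM (log2 fold change -1.08 ± 0.18 SE, adjusted p = 0.000687). Genes expressed from the maternal and from the paternal copy were thus both among the rises.

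Chromatin regulators outside the compound targets changed in both directions. Calls made up 34.8% of DNA methylation genes and 45.2% of Polycomb genes, beside 28.7% of all tested genes. DNA methylation genes gave 2 rises and 6 falls of 23 (2 rose and 2 fell without untreated replicate 1, 2 rose and 3 fell without SA replicate 1). Uhrf1, which brings DNMT1 to replicated DNA, had 639.9 and 519 CPM against 939 and 823 (log2 fold change -0.60 ± 0.15 SE, adjusted p = 0.00798; 0.0919 without untreated replicate 1). Its relative Uhrf2 rose from 61.6 and 59.5 CPM to 108 and 119.9 CPM (log2 fold change 0.91 ± 0.14 SE, adjusted p = 0.000366). Polycomb genes gave 6 rises and 8 falls of 31 (2 rose and 5 fell without untreated replicate 1, 1 rose and 8 fell without untreated replicate 2, 3 rose and 6 fell without SA replicate 1). Phc2, a PRC1 subunit, rose from 29.5 and 28.9 CPM to 76.1 and 83.6 CPM (log2 fold change 1.45 ± 0.15 SE, adjusted p = 1.99e-05), while Cbx2 and Phf19 fell by log2 changes of -1.04 and -1.28.

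Matrix and junction genes changed in both directions. Of 29 collagens, laminins and integrins 13 rose and 5 fell (5 rose and 3 fell without untreated replicate 1). Itga2b, the platelet integrin, rose from 1.35 and 1.54 CPM to 18.8 and 11.7 CPM (log2 fold change 3.43 ± 0.37 SE, adjusted p = 2.56e-05), and Nid1, a basement membrane linker, fell from 218 and 195 CPM to 89.7 and 76.7 CPM (log2 fold change -1.31 ± 0.15 SE, adjusted p = 4.23e-05). Adhesion and junction genes gave 7 rises and 10 falls of 30 (3 rose and 8 fell without untreated replicate 1). Connexin genes changed in both directions: Gjb5 fell from 19 and 11.2 CPM to 3.5 and 3.77 CPM (log2 fold change -2.09 ± 0.27 SE, adjusted p = 0.000115), while Gja1 rose from 123 and 80.8 CPM to 194 and 244 CPM (log2 fold change 1.10 ± 0.22 SE, adjusted p = 0.00549). Of 11 fibroblast markers tested 4 rose and none was called lower (1 at an unadjusted p below 0.05), among them Col1a1 from 1.41 and 1.54 CPM to 6.49 and 6.55 CPM (log2 fold change 2.15 ± 0.43 SE, adjusted p = 0.00238). Of 7 macrophage and blood markers 1 rose, Cd52 (log2 fold change 3.55 ± 0.89 SE, adjusted p = 0.00883; 0.0793 without SA replicate 1). Of 11 endothelial markers 4 rose and 2 fell, with the receptor gene Tek going from 8.75 and 5.94 CPM to 25.5 and 41.5 CPM (log2 fold change 2.16 ± 0.29 SE, adjusted p = 0.000136) and Pecam1, which ESCs express, from 108 and 102 CPM to 50.8 and 70.9 CPM (log2 fold change -0.80 ± 0.16 SE, adjusted p = 0.00244).

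The share of calls in lysosome, spliceosome and telomere genes was above the 28.7% of all tested genes, and that in interferon and ribosomal protein genes below it. Lysosome genes gave 5 rises and 6 falls of 34 (0 rose and 4 fell without untreated replicate 1, 3 rose and 4 fell without untreated replicate 2, 3 rose and 4 fell without SA replicate 1). Their master factor Tfeb fell from 59.2 and 54.6 CPM to 16.5 and 16 CPM (log2 fold change -1.80 ± 0.15 SE, adjusted p = 6.42e-06). Spliceosome genes gave 3 rises and 9 falls of 32 (2 rose and 1 fell without untreated replicate 1, 3 rose and 2 fell without SA replicate 2). Srsf5, a splicing factor, rose from 337 and 299.8 CPM to 685 and 474 CPM (log2 fold change 0.87 ± 0.18 SE, adjusted p = 0.00285). Telomere genes gave 5 rises and 3 falls of 21 (2 rose and 1 fell without untreated replicate 1, 1 rose and 1 fell without untreated replicate 2, 4 rose and 0 fell without SA replicate 1, 4 rose and 1 fell without SA replicate 2). Interferon and sensing genes gave 1 rise and 7 falls of 30 (1 rose and 2 fell without untreated replicate 1, 1 rose and 3 fell without SA replicate 2), with Irf9, a factor of the interferon signal, falling from 15.8 and 14.8 CPM to 7.6 and 5.55 CPM (log2 fold change -1.20 ± 0.25 SE, adjusted p = 0.0031). Ribosomal protein genes gave 1 rise and 8 falls of 46, a count that single libraries decided (1 rose and 0 fell without untreated replicate 1, 0 rose and 1 fell without untreated replicate 2, 1 rose and 33 fell without SA replicate 1, 1 rose and 2 fell without SGC-only replicate 1, 1 rose and 4 fell without SGC-only replicate 2, 1 rose and 2 fell without mESC replicate 1, 1 rose and 4 fell without mESC replicate 2).

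**Figure D3:**
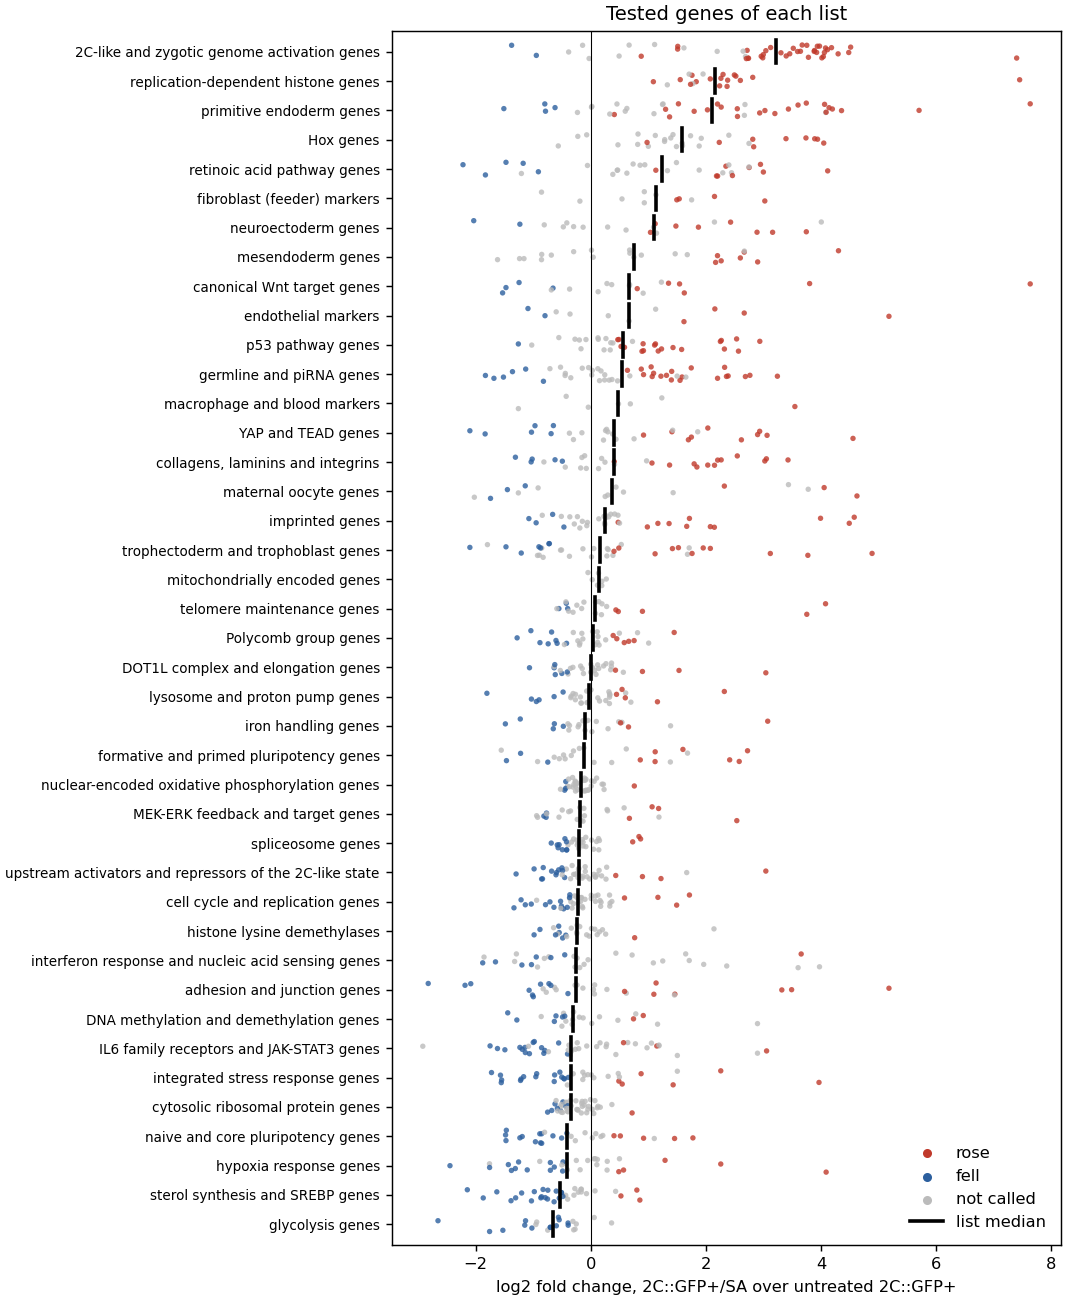
Log2 fold change (horizontal axis, SA over untreated) of every tested gene in each of 41 lists (vertical axis). Red points rose, blue points fell, grey points were not called, and the black bar is the list median. The medians run from -0.65 for glycolysis genes to 3.22 for genes of the 2-cell-like state.

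Single genes outside the lists changed by more than most list members. Leaving predicted models aside, and among genes that reached 10 CPM in either group, the largest rises were all above 4.5 on the log2 scale. Tmem72, a membrane protein gene, rose from 0.684 and 0.594 CPM to 25.7 and 9.94 CPM (log2 fold change 4.78 ± 0.64 SE, adjusted p = 0.000478), and the receptor genes Olfr1425 and Vmn1r227 by log2 changes of 4.61 and 4.61. Calhm3, a subunit of a channel of taste cells, had 122 and 37.3 CPM against 3.81 and 2.08 (log2 fold change 4.68 ± 0.86 SE, adjusted p = 0.0164; 0.0721 without untreated replicate 1, 0.145 without untreated replicate 2, 0.071 without mESC replicate 2). The largest falls were smaller. Ankrd34a, an ankyrin repeat gene, fell from 17.6 and 9.92 CPM to 1.47 and 0.77 CPM (log2 fold change -3.51 ± 0.45 SE, adjusted p = 0.000126), and Pou2f3, a POU factor of tuft cells, from 18 and 8.73 CPM to 1.44 and 1.39 CPM (log2 fold change -3.26 ± 0.36 SE, adjusted p = 9.01e-05). Jdp2, a repressor of the AP-1 family, fell by a log2 change of -2.73 ± 0.30 (SE), Sema6c, a semaphorin, by -2.50 ± 0.20 and Kcnh2, a potassium channel, by -2.49 ± 0.31. Among predicted models, 1700019L13Rik rose from 0.467 and 0.238 CPM to 17.3 and 9.4 CPM (log2 fold change 5.07 ± 0.54 SE, adjusted p = 2.94e-05), and Gm2139 by a log2 change of 4.96 ± 0.46. By TPM, Eef1a1, the elongation factor, was among the largest losses, with 7482 and 4173 CPM against 11506 and 10875 (log2 fold change -0.94 ± 0.22 SE, adjusted p = 0.00815; 0.0774 without untreated replicate 1, 0.112 without untreated replicate 2), and Mif, a cytokine gene, fell from 668 and 529 CPM to 363 and 344 CPM (log2 fold change -0.76 ± 0.15 SE, adjusted p = 0.00236).

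The SA libraries differed from each other in which groups stood high. Of 9827 genes with a mean of at least 10 CPM in a group, 4.13% were at least 2-fold apart between the SA libraries, 360 of them higher in replicate 1 and 46 higher in replicate 2. The share was 0.855% in untreated cells, 1.47% in SGC-only cells and 2.14% in mESC. Of the 360 genes, 314 had been called risen, as had 1446 of the 9827. The median gene of the 2-cell-like list stood higher in replicate 1 by 1.22 on the log2 scale (0.1 CPM added), and that of the ribosomal protein list by 0.58. Over all tested genes the median was 0.03. Lists that stood higher in replicate 2 had medians below 0 on this scale. The lowest were -0.52 for primitive endoderm, -0.48 for endothelial markers, -0.42 for formative genes, -0.36 for ERK genes and -0.35 for p53 genes. Further lists also lay below 0, such as mesendoderm genes (-0.32). Histone genes (0.24), glycolysis genes (0.05) and sterol genes (0.16) were closer. Both libraries carry the same label, and a pair of libraries allows no test of such a pattern.

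**Figure D4:**
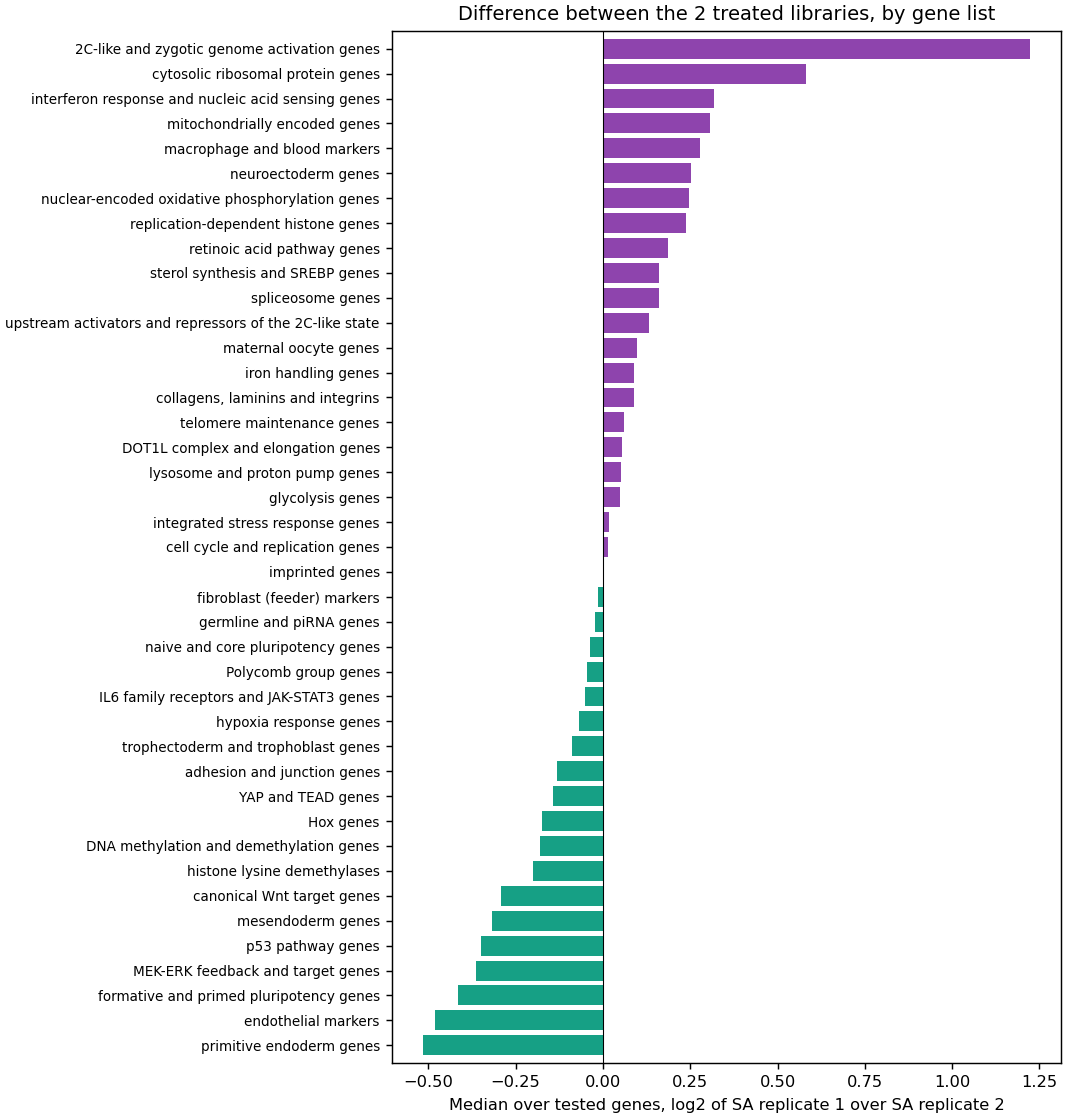
Median log2 ratio of SA replicate 1 to SA replicate 2 over the tested genes of each list (horizontal axis, 0.1 CPM added before the ratio), 1 bar per list. Genes of the 2-cell-like state (1.22) stand highest in replicate 1 and primitive endoderm genes (-0.52) highest in replicate 2.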

How the data were processed

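Polyadenylated RNA was sequenced in 8 libraries, 2 per group. The count table holds whole-number read counts per gene that the authors deposited without normalization, and the TPM values deposited by the authors rest on the same genes and scale counts by gene length and library total. Per the submitters' processing notes, featureCounts 2.0.0, STAR 2.7.4a, Trim Galore 0.6.5 and FastQC 0.11.9 were used, with GRCm38 and mm10 both listed as builds. No source used here gives the strand setting or how multimapping reads were counted, so overlapping or near-identical genes may share reads. The 2 columns named KOSR match no label and were taken as untreated 2C::GFP+ by elimination, and every result rests on this. No column was left out (0 of them).

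Symbols and coordinates came from GENCODE M21 (55480 of 55573 identifiers). Counts were scaled by TMM, filtered with filterByExpr and fitted with edgeR 4.0.16 (robust quasi-likelihood, 4 residual degrees of freedom, R 4.3.3) over all 8 libraries. P-values were two-sided and adjusted by Benjamini-Hochberg over 20608 genes, and the threshold was 0.05. The standard error of a log2 fold change was taken as its size over the root of its F value. In simulated data with 19916 genes, 200 genes with a mean above 1 CPM were changed, and the spread followed the fitted trend. The fit recovered 66% of rises and 58% of falls of 1 on the log2 scale, and 96% and 88% of those of 2, with 3.75% false calls. In the real comparison 28.7% of tested genes were called, so these rates may not carry over to it. Alternatives used DESeq2 1.42.0, limma 3.58.1 on log2(TPM + 0.1) and log2(TPM + 1), other filters and libraries left out.

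The members and the 41 gene lists were chosen with earlier results of these data known. Genes are named by a rule: the 10 largest rises and falls of at least 10 CPM, the 5 largest rises and falls in TPM, up to 3 called members in the main direction and 2 in the other from each role of each list by smallest adjusted p, 3 predicted models, and a set of genes of interest, in all 299 genes, of which 286 were called and 190 were called without each single library. Lists are described by counts and medians, without a test. Some genes are not reported here.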

Additional observations from a re-analysis of the deposited data

How the results depend on the processing

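The 5910 calls became 2890 without untreated replicate 1, and ranged from 2890 to 5861 when each library was left out. The other alternatives gave between 4566 calls with limma on log2(TPM + 0.1) and 6830 with the replicate number as a block. The block result (3411 rises and 3419 falls) is given for completeness: the labels do not say what the numbers pair. The correlation of same-numbered deviations was 0.0707 between the 2 groups compared and from 0.0411 to 0.142 over all 6 pairs of groups, of which 3 were over 0.1. With the block the adjusted p of Zscan4c was 0.0587, and that of Myc 0.0378. With DESeq2 size factors 60.0% of calls were rises, against 52.0%. None of the 5910 calls was made in the opposite direction under any of the 17 alternatives. The median log2 fold change of a few lists near 0 changed sign: trophectoderm genes (-0.0639 with replicate 1 thinned), oocyte genes (-0.2855 with a stricter filter) and, with single libraries left out, formative genes (from -0.2527 to 0.151), oxidative phosphorylation genes (from -0.2778 to 0.00196), mitochondrial genes (from -0.003538 to 0.3107) and junction genes (from -0.3122 to 0.01986). How far the lower depth of replicate 2 limited the calls was not tested. The cause of these changes was not tested.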
